A study of Arabidopsis thaliana with 103 samples.

Results

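Expression of 7 *Arabidopsis* genes of salicylic acid (SA) defence was followed through the RNA-seq libraries of plants mutated in components of the MOM1 complex, the MORC proteins or the Pol V subunit NRPE1, and the ChIP-seq peaks over the same loci were examined. The genes were chosen by their identifiers and not by a threshold on a measured value, although earlier results of these data were known: *PR1* (AT2G14610), *PR2* (AT3G57260), *PR5* (AT1G75040), *EDS1* (AT3G48090), *PAD4* (AT3G52430), *ICS1* (AT1G74710) and *SNC1* (AT4G16890). They are 7 of the 64790 genes and transposable elements (TEs) in the RNA-seq tables, 33602 of which are genes. *EDS1* transcripts were fewer than in the shared Col-0 wild type in *mom2-2*, *morc6-3*, *morchex*, *phd1-2* and *phd1-4*, by less than the 2-fold limit used for calls. *PR2* was far above its usual level in individual libraries of *aipp3*, *phd1-2* and *nrpe1-11*, and *SNC1* was the locus of the 7 with the most MORC6-Myc peaks.

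SA is made in infected leaves and turns on defence genes through the receptor NPR1 and its relatives. ICS1 makes the precursor of most pathogen-induced SA in the plastid, and the lipase-like proteins EDS1 and PAD4 form a complex that carries signals from TIR-type immune receptors to SA production. SNC1 is such a receptor, encoded in the *RPP5* cluster of disease resistance genes, and mutants with an overactive SNC1 are stunted and express defence genes without infection. PR1, the β-1,3-glucanase PR2 and the thaumatin-like PR5 are secreted proteins whose transcripts are the usual readout of the SA response.

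RNA was taken from 12-day-old whole seedlings of the Columbia-0 ecotype, grown on plates under 16 h of light with no pathogen or SA treatment named in the labels. There were 14 groups of 3 libraries, 42 in all. One set of 6 libraries held *nrpe1-11*, a T-DNA mutant of the largest Pol V subunit, and its own Col-0 control. The larger set of 36 libraries held a second Col-0 control and 11 mutants. Of these, *aipp3-1*, *aipp3-2*, *mom2-1*, *mom2-2*, *pial1-2*, *pial2-1* and *morc6-3* are T-DNA lines, *pial1/2* combines the lesions of *PIAL1* and *PIAL2*, *morchex* combines lesions of *MORC1*, *MORC2*, *MORC4*, *MORC5*, *MORC6* and *MORC7*, and *phd1-2* and *phd1-4* carry CRISPR insertions of a single T in separate exons of *PHD1*. Peak lists came from floral tissue of plants with tagged AIPP3, PHD1, PHD3, PIAL2 or MORC6 under their own promoters, and the MORC6-Myc lists in *morc6*, Col-0 and *pial1/2* backgrounds come each from a separate transgenic line.

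Library totals ranged from 13164568 to 33464591 expected counts with a median of 19019342, so that 3 counts, the limit set here for detection, stood for a CPM (a count scaled to the library total) of 0.126, 0.144 and 0.118 in the 3 Col-0 libraries of the larger set. Such limits cover counting error only. The mutated gene was called lower in *nrpe1-11*, in each *aipp3* and *mom2* allele, in *morc6-3*, in *pial2-1* and, for *PIAL2*, in *pial1/2*. In *morchex*, *MORC1*, *MORC2*, *MORC6* and *MORC7* were called lower and *MORC4* higher. *PIAL1* was not called lower in *pial1-2* or *pial1/2*, and the *phd1* insertions need not change a transcript level. The summed level of 3 green shoot markers lay between 15931 and 21682 CPM over the 42 libraries, although *LHCB1.1* was lower in the *nrpe1-11* set, at 2089 to 3656 CPM against 5932 to 8572 CPM, and *CA1* higher, at 4171 to 4924 CPM against 2048 to 3294 CPM. The sum of 4 root markers lay between 1634 and 2976 CPM. The labels give no harvest time and no sequencing batch, and nothing states that replicates were separate plantings, so p-values measure the spread between these libraries. Whole seedlings were used, so that fewer cells of a type and less RNA per cell cannot be told apart.

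The promoters are shown first because WRKY factors, which act throughout the SA response, bind the W-box, and TGA factors, the partners of NPR1, bind the TGACG core. Each line holds the 250 bases before the transcription start, read 5′ to 3′ on the strand of the gene from RefSeq's TAIR10.1 genome, with W-box letters TTGACC or TTGACT and the core TGACG, on either strand, in capitals. On the opposite strand TTGACT reads AGTCAA.
SNC1, chr4:9505973-9506222, minus strand: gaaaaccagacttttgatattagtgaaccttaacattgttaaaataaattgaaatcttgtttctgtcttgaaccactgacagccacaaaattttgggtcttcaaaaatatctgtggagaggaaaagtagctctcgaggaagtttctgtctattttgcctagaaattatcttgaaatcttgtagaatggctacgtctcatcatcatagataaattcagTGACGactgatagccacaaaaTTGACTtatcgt
EDS1, chr3:17758148-17758397, minus strand: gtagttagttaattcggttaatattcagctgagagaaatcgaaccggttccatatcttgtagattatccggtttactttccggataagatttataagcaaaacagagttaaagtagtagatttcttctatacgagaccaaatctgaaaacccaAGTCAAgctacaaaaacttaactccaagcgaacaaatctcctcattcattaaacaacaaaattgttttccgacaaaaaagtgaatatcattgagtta
PR5, chr1:28177420-28177669, plus strand: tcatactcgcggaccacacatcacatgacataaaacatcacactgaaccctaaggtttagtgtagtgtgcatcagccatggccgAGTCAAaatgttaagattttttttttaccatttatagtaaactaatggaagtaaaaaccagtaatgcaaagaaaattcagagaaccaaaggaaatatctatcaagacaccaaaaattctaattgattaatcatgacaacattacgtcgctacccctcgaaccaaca
PR2, chr3:21189968-21190217, minus strand: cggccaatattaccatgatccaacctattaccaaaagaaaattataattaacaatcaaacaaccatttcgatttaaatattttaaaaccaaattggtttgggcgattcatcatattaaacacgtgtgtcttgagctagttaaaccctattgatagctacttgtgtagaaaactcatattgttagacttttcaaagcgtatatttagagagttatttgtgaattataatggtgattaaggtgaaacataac

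In windows from 250 bases before to 50 bases after the start, a W-box was found for 5 of the 7 genes, against 32.4% of 27443 protein-coding gene windows. TTGACT alone occurred in 21.8% of all windows, TTGACC in 14.2% and TGACG in 23.1%. *SNC1* held both motifs close together, with TGACG starting 33 bases and TTGACT 12 bases before its start. The W-box of *EDS1* began 97 bases and that of *PR5* 166 bases before the start, both on the opposite strand. The *PR2* and *PAD4* matches lay 39 and 30 bases after the start, outside the letters printed, and *PR1* and *ICS1* had none in this window. Counts over 7 genes are a description, and a letter match does not show that a factor binds.

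*PR1* and *PR2* were close to silent in most libraries. *PR1* had no count in 30 of the 42 libraries and reached 1 CPM in 5. All 3 Col-0 libraries of the larger set were at 0. The libraries above 1 CPM were *nrpe1-11* replicate 1 at 7.09 CPM, *aipp3-1* replicate 3 at 6.93, *phd1-4* replicate 1 at 6.42, *aipp3-2* replicate 3 at 3.70 and replicate 2 of the Col-0 control of *nrpe1-11* at 3.36. In each of these 5 groups *PR1* was below 1 CPM in the other 2 libraries, so no group was raised as a whole. The highest count was 196.

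*PR2* was 0.799, 0.0481 and 0.0394 CPM in Col-0 and 29.5, 0.429 and 116 CPM in *aipp3-2*. Replicate 3 of *aipp3-2* stood 408-fold above the median of the 36 libraries, while replicate 2 of the same mutant was below Col-0 replicate 1, so the groups overlapped. The levels were 0.344, 0.109 and 27.7 CPM in *aipp3-1* and 47.0, 0.0437 and 3.19 CPM in *phd1-2*. They were 18.4, 0 and 0 CPM in *nrpe1-11* against 0, 4.49 and 0 CPM in its control, and 2.08, 0.152 and 0.515 CPM in *phd1-4*. High *PR2* was thus seen in some libraries of these groups and not in others. In *mom2-1*, *mom2-2*, *morc6-3*, *morchex*, *pial1-2*, *pial1/2* and *pial2-1* the highest library had 1.29 CPM.

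*PR5* was measured in every library. It was 3.28, 3.12 and 2.21 CPM in Col-0, 5.35, 2.41 and 20.8 CPM in *aipp3-2*, and 2.35, 1.96 and 9.98 CPM in *aipp3-1*. The third replicate was the high one in each *aipp3* allele, as for *PR2*. In *phd1-2* the values of 5.33, 3.32 and 3.57 CPM all lay above the Col-0 libraries, the lowest of them narrowly, and the remaining mutants of the larger set ranged from 1.81 to 4.14 CPM. The labels do not say whether replicates of the same number were grown together.

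**Figure D1:**
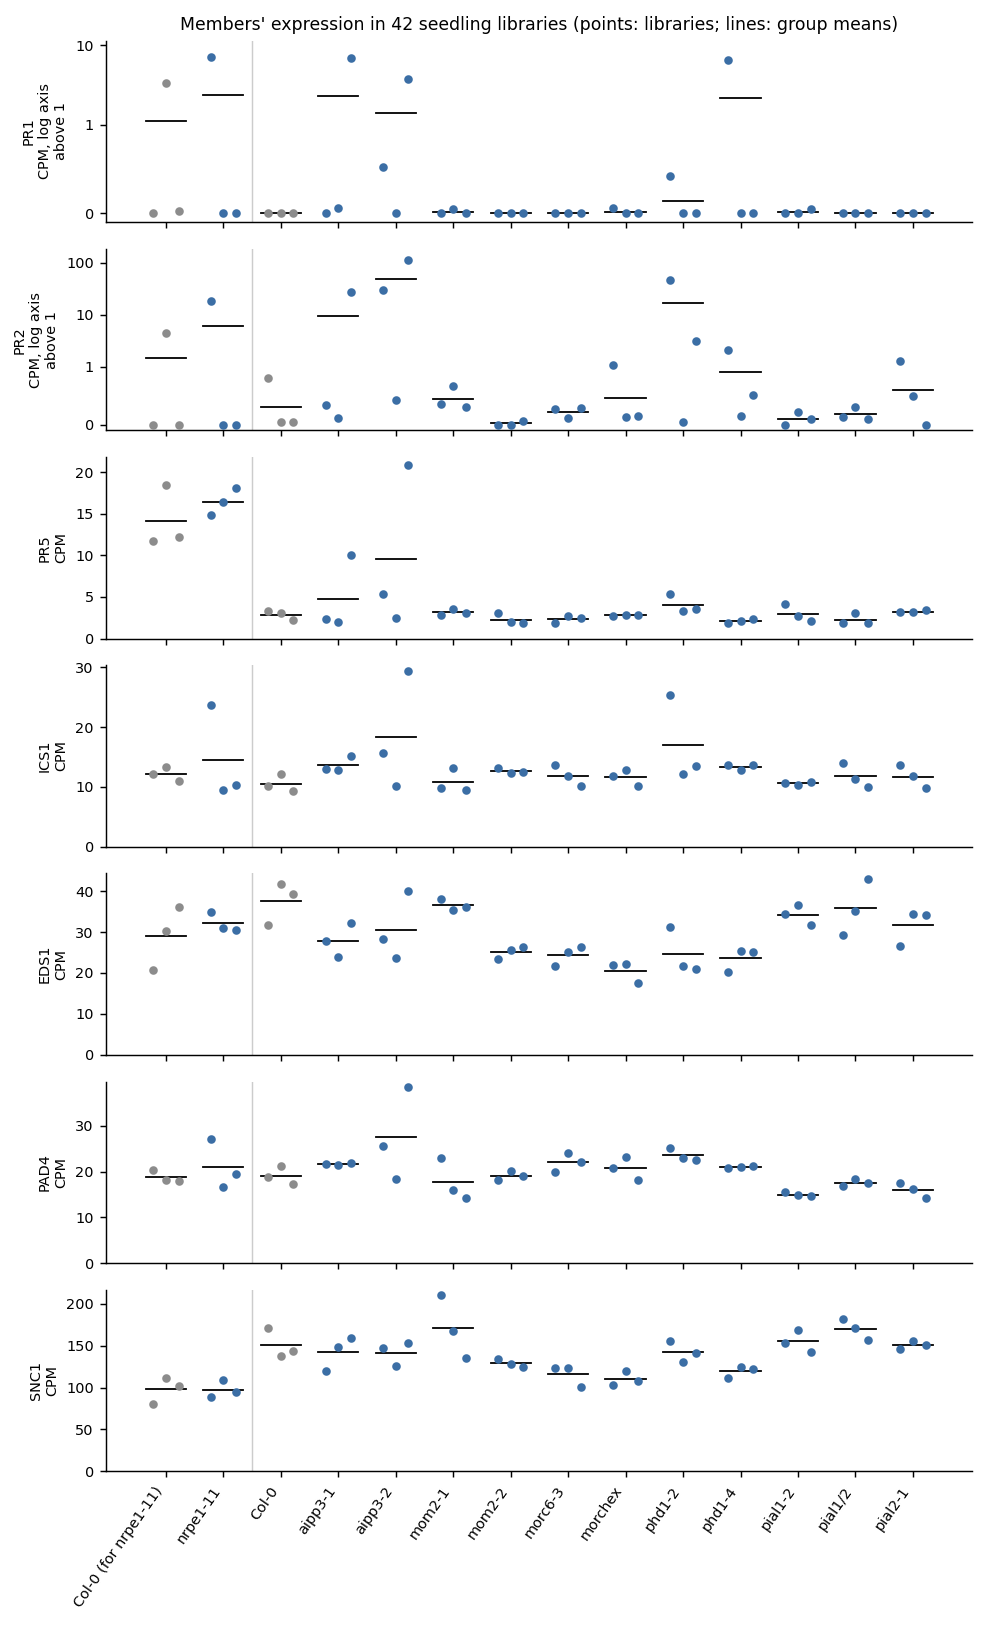
Level of each of the 7 genes in CPM (vertical axes) in all 42 libraries, by genotype group, with 1 point per library, grey for Col-0, lines for group means and axes that are logarithmic above 1 CPM for *PR1* and *PR2*. *PR1*, *PR2* and *PR5* are high in individual libraries, up to 116 CPM for *PR2* in *aipp3-2* replicate 3, while the libraries of a group lie close together for *SNC1*.

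Across features of mean CPM of at least 1 (19562 features), the within-group SD of log2(CPM + 1) had a median of 0.141. It was 1.49 for *PR2*, at the 99.9th percentile, and 0.537 for *PR5*, at the 98.4th. *ICS1* at 0.302 was at percentile 93.2, *EDS1* at 0.211 at 80.5, *PAD4* at 0.200 at 77.1 and *SNC1* at 0.155 at 57.9. *PR1* was below the level limit. *PR2* passed that limit through its high libraries, with a median of 0.284 CPM and at least 1 CPM in 8 of 36 libraries. A large SD of *PR2* was thus built in. Among the members measured in every library, *PR5* varied most within groups and *SNC1* least.

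Each mutant was compared with its own Col-0 by edgeR's quasi-likelihood test, and a feature was called at an absolute log2 fold change of at least 1 and a Benjamini-Hochberg adjusted p under 0.05 over all features tested. Over the 12 comparisons the only call among the 7 genes was *PR2* in *aipp3-2*, with a log2 fold change of 7.20 (SE 1.76, adjusted p = 0.0274), where 1 of 6 tested genes was called against 4.2% of all features. That call depended on individual libraries. Its adjusted p became 0.0518, 0.0946 and 0.114 when Col-0 replicate 1, 2 or 3 was left out, and the gene no longer passed the level filter without *aipp3-2* replicate 1 or 3. Without *aipp3-2* replicate 2 the log2 fold change was 7.78 (adjusted p = 0.00562) and *PR5* was called as well, at 2.08 (adjusted p = 0.0434), against 1.64 (SE 0.67, adjusted p = 0.127) with all libraries.

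*PR2* in *phd1-2* had a log2 fold change of 5.73 (SE 1.86, adjusted p = 0.0717) and was past the threshold in 6 of the alternative fits. Among them were DESeq2 at 5.80 (adjusted p = 0.0416) and the fit with a replicate block at 5.76 (adjusted p = 0.000804). Same-numbered libraries of *phd1-2* and Col-0 were not alike once group means were removed (r of −0.015, −0.072 and 0.039), so the block has no basis in this comparison. Filtering on levels left *PR1* untested in 11 mutants and *PR2* in 9, and *PR1* and *PR2* in *nrpe1-11* differed from the control by 1.00 (SE 1.98) and 1.98 (SE 2.15) on the log2 scale, each with an adjusted p of 1.00. A member that passed the filter only through its high libraries was bound to vary widely between libraries, so these counts are not evidence about the pathway.

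No member was called in the other 11 mutants. The number tested was 7 in *nrpe1-11*, where 0.478% of all features were called, 6 in *phd1-2* (3.1%) and 5 in each other mutant. The background was 2.88% in *aipp3-1*, 0.0355% in *mom2-1*, 3.38% in *mom2-2*, 3.35% in *morc6-3*, 3.91% in *morchex*, 3.71% in *phd1-4*, 0.106% in *pial1-2*, 0.484% in *pial1/2* and 0.147% in *pial2-1*. With backgrounds this low, 0 of 5 genes is near what the whole table shows.

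The 6 comparisons within a gene or complex also gave 0 calls among the members. The background there was 0.114% for *aipp3-2* against *aipp3-1*, 0% for *phd1-4* against *phd1-2*, 3.13% for *mom2-2* against *mom2-1*, 0.0352% for *morchex* against *morc6-3*, 0.47% for *pial1/2* against *pial1-2* and 0.324% for *pial1/2* against *pial2-1*. *PR2* had a log2 fold change of −4.04 in *phd1-4* against *phd1-2* (SE 1.64, adjusted p = 1.00). Residuals of same-numbered libraries of these alleles correlated (r of 0.48, 0.17 and 0.48), although the labels state no pairing. With the replicate block the change was −3.92 with an adjusted p of 6.4e-05. Replicate 2 went the other way, at 0.0437 CPM in *phd1-2* and 0.152 CPM in *phd1-4*. *PR2* passed the level filter through its high libraries, so this p-value is not support for a difference between the alleles. Between the *aipp3* alleles, the log2 fold changes were −0.78 (SE 1.62) for *PR1* and 2.30 (SE 1.70) for *PR2*, each with an adjusted p of 1.00.

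Among the genes that act before the *PR* genes, *EDS1* showed the most regular differences. It was 31.6, 41.7 and 39.3 CPM in Col-0, a mean of 37.5 ± 5.26 (SD, n = 3). It was 22.1, 22.1 and 17.6 CPM in *morchex*, 21.8, 25.2 and 26.3 in *morc6-3*, and 23.3, 25.6 and 26.2 in *mom2-2*. *phd1-4* had 20.3, 25.4 and 25.2 CPM and *phd1-2* had 31.3, 21.8 and 21.0 CPM. In all 5 mutants each library was below each Col-0 library, narrowly for *phd1-2*, while *aipp3-2*, with 28.2, 23.6 and 40.0 CPM, overlapped Col-0. The share of all features that separate in this way was not counted, here or for the other genes, so such separation is a description.

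With no minimum fold, *EDS1* had an adjusted p under 0.05 in these 5 mutants and in none of the other 7. The *aipp3* alleles went the same way without passing, at a log2 fold change of −0.46 (SE 0.14, adjusted p = 0.0846) in *aipp3-1* and −0.38 (SE 0.17, adjusted p = 0.164) in *aipp3-2*. *nrpe1-11* was at 0.14 (SE 0.19) against its own control. In the 5 that passed, the log2 fold change was −0.84 (SE 0.13, adjusted p = 0.00574) in *morchex*, −0.62 (SE 0.12, 0.0108) in *morc6-3*, −0.60 (SE 0.11, 0.00804) in *mom2-2*, −0.62 (SE 0.11, 0.00683) in *phd1-4* and −0.60 (SE 0.15, 0.0335) in *phd1-2*. The count of members past this looser limit was 2 of 5 in *morchex* against 16.9% of features, 1 of 5 in *morc6-3* (14.1%), 1 of 5 in *mom2-2* (15.6%), 2 of 5 in *phd1-4* (19.3%) and 2 of 6 in *phd1-2* (16.7%). Leaving out 1 library at a time kept the adjusted p under 0.05 in all 6 fits of *morchex*, *mom2-2* and *phd1-4*. For *morc6-3* it rose to 0.0507 without Col-0 replicate 3, and for *phd1-2* it passed in 2 of 6 fits and was at most 0.119.

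*EDS1* differed between the alleles of *MOM2*. It was 38.1, 35.4 and 36.02 CPM in *mom2-1*, every library above those of *mom2-2*, with a log2 fold change of −0.59 (SE 0.08, adjusted p = 0.00329) for *mom2-2* against *mom2-1*, where 1 of 5 members passed with no minimum fold against 12.4% of features. Against Col-0, *mom2-1* was at −0.01 (SE 0.11, adjusted p = 1.00) and the 3 *pial* lines were between −0.22 and −0.03, none below an adjusted p of 0.727. *morchex* and *morc6-3* did not differ from each other beyond the spread of their libraries (−0.23, SE 0.12, adjusted p = 1.00).

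These comparisons share the same 3 Col-0 libraries, so a low or high control touches all of them. Set against the mean of the 10 other mutants in place of Col-0, *EDS1* remained lower in *morchex*, at −0.49 (adjusted p = 0.0147), and was −0.22, −0.24, −0.21 and −0.24 in *mom2-2*, *morc6-3*, *phd1-2* and *phd1-4* with adjusted p-values from 0.277 to 0.387. For each of these mutants that mean includes the others with lower *EDS1*, so smaller differences than against Col-0 were built in. By the same measure *mom2-1* was higher, at 0.45 (adjusted p = 0.00806), although it was at −0.01 against Col-0.

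*PAD4*, the partner of EDS1, did not follow it. It was 18.8, 21.1 and 17.3 CPM in Col-0 and 20.9, 23.2 and 18.2 CPM in *morchex*, and its only library far from the rest was *aipp3-2* replicate 3 at 38.5 CPM, beside 25.6 and 18.5 CPM in the other replicates. In *phd1-2* the log2 fold change was 0.31 (SE 0.09, adjusted p = 0.0482), with 25.3, 23.0 and 22.5 CPM, and in 5 of the 6 fits without 1 library the adjusted p was over 0.05 (at most 0.152). The 3 *pial* lines were between −0.33 and −0.09 with adjusted p-values of at least 0.258.

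*ICS1* was 10.2, 12.1 and 9.38 CPM in Col-0. It was 15.7, 10.2 and 29.4 CPM in *aipp3-2*, 25.3, 12.2 and 13.5 CPM in *phd1-2* and 23.7, 9.56 and 10.3 CPM in *nrpe1-11*. The highest *ICS1* libraries, *aipp3-2* replicate 3, *phd1-2* replicate 1 and *nrpe1-11* replicate 1, were also high in *PR2*. The reverse did not hold throughout. *PR2* was 29.5 CPM in *aipp3-2* replicate 1 and 27.7 CPM in *aipp3-1* replicate 3, above the 18.4 CPM of *nrpe1-11* replicate 1. *ICS1* was only 15.7 and 15.2 CPM in those *aipp3* libraries. In *phd1-4*, at 13.7, 12.8 and 13.7 CPM, the log2 fold change was 0.40 (SE 0.12, adjusted p = 0.0408), and 1 of the 6 fits without a library stayed under 0.05 (at most 0.145). The changes of 0.71 (SE 0.32, adjusted p = 0.156) in *aipp3-2* and 0.68 (SE 0.25, adjusted p = 0.105) in *phd1-2* did not pass.

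**Figure D2:**
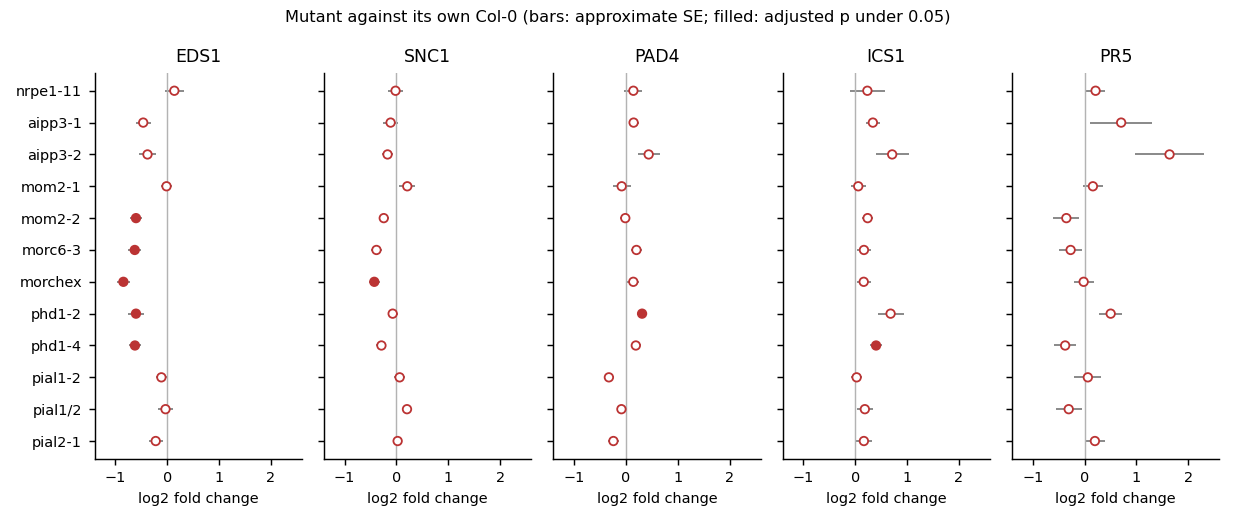
Log2 fold change (horizontal axes) of the 5 genes tested in every mutant, each mutant against its own Col-0 with 3 libraries per group, from edgeR, with bars of 1 approximate SE and filled points at an adjusted p under 0.05. *EDS1* lies between −0.84 and −0.60 in *mom2-2*, *morc6-3*, *morchex*, *phd1-2* and *phd1-4*, and the bars of *PR5* are widest in the *aipp3* alleles.

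*SNC1* had the highest level per length of the 7 genes, with a median of 38.6 TPM (a level scaled by transcript length, range 25.0 to 60.9) over the 42 libraries. The median TPM was 16.5 for *EDS1*, 12.2 for *PAD4*, 6.92 for *ICS1*, 4.02 for *PR5*, 0.245 for *PR2* and 0 for *PR1*. *SNC1* was 172, 138 and 143 CPM in Col-0, 103, 119 and 108 CPM in *morchex*, 123, 123 and 101 CPM in *morc6-3*, and 210, 168 and 135 CPM in *mom2-1*. Each library of *morchex* and *morc6-3* was below each Col-0 library, as were those of *mom2-2*, at 135, 128 and 124 CPM, and *phd1-4*, at 111, 125 and 122 CPM, and *mom2-1* spread across the Col-0 range and beyond it. As for *EDS1*, the share of all features with such separation was not counted.

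The log2 fold change of *SNC1* was −0.43 (SE 0.10, adjusted p = 0.0292) in *morchex* and −0.39 (SE 0.11, adjusted p = 0.0521) in *morc6-3*, and the 2 did not differ beyond their spread (−0.05, SE 0.10, adjusted p = 1.00). It was −0.25 (SE 0.09, adjusted p = 0.118) in *mom2-2* and −0.29 (SE 0.10, adjusted p = 0.0644) in *phd1-4*. Leaving out 1 library kept the adjusted p under 0.05 for *morchex* in 2 of 6 fits, with a highest value of 0.0814 and losses without Col-0 replicate 1 or 3 or *morchex* replicate 1 or 3. Against the mean of the other mutants *morchex* was at −0.36 (adjusted p = 0.0152), *morc6-3* at −0.31 (adjusted p = 0.0613) and *mom2-1* at 0.36 (adjusted p = 0.00568). That mean includes the other mutants with lower *SNC1*. *pial1/2*, at 182, 170 and 157 CPM, had a log2 fold change of 0.20 (SE 0.10, adjusted p = 1.00).

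In the order of the 14 group means *SNC1* ran from 171 ± 37.6 CPM (SD, n = 3) in *mom2-1* and 170 ± 12.6 in *pial1/2* down to 110 ± 8.26 in *morchex*, 97.9 ± 15.9 in the Col-0 control of *nrpe1-11* and 97.0 ± 10.3 in *nrpe1-11*. *EDS1* ran from 37.5 ± 5.26 in Col-0 and 36.5 ± 1.41 in *mom2-1* to 20.6 ± 2.57 in *morchex*. *PAD4* had its highest mean, 27.5 ± 10.2, in *aipp3-2* and its lowest, 15.0 ± 0.512, in *pial1-2*. *ICS1* ran from 18.4 ± 9.87 in *aipp3-2* to 10.6 ± 1.40 in Col-0. *PR5* ran from 16.4 ± 1.62 in *nrpe1-11* to 2.12 ± 0.247 in *phd1-4*, *PR2* from 48.7 ± 60.1 in *aipp3-2* to 0.0209 ± 0.0361 in *mom2-2*, and *PR1* from 2.36 ± 4.09 in *nrpe1-11* to 0. For each of the 7 genes, 0 of the 13 pairs of neighbouring groups in this order failed to overlap. Neighbours in an order by mean are the closest groups, and the share of all features with such overlap was not counted. The count therefore draws no line between groups further apart, such as Col-0 and *morchex*, which did not overlap in *EDS1*. The order runs across both sets, whose Col-0 controls differ in *PR5* (log2 fold change 2.28) and *SNC1* (−0.64), and the places of *nrpe1-11* and its control carry that difference.

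*SNC1* shares sequence with its neighbours. Of the 50-base windows of its mRNA, 19.3% occurred in a transcript of another gene of the lists used here, 14.7% in that of *RPP5*. Of the 100-base windows 4.36% did. For *EDS1* 0.919% of 50-base windows were shared with its tandem copy *EDS1B*, and the other 5 genes shared none with a listed gene. Transcripts of genes outside the lists were not searched, so sharing with them is unknown. Expected counts divide reads that fit several transcripts, so part of any difference in *SNC1* could belong to a relative, and the levels within the cluster are uncertain to that extent.

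The 7 other genes of the *RPP5* cluster were read beside it. None was called in any mutant. With no minimum fold 5 of 7 were lower in *morchex* (16.9% of all features either way), 4 in *morc6-3* (14.1%), 3 each in *mom2-2* (15.6%) and *phd1-4* (19.3%) and 1 in *phd1-2* (16.7%), while *aipp3-2* had 3 lower and 1 higher (18.3%). The median log2 fold change of the 7 was −0.55 in *morchex* and −0.54 in *morc6-3*, where the median of all features was 0.01 and 0.00. *RPP5*, a receptor for downy mildew, was 276 ± 18.6 CPM in Col-0 and 185 ± 14.8 in *morchex* (log2 fold change −0.55, SE 0.09, adjusted p = 0.00675), and *RPP4*, a second such receptor, was 134 ± 10.5 and 91.6 ± 16.6 CPM (−0.52, SE 0.13, adjusted p = 0.0344). Among 6 genes listed as regulators of SNC1, 0 were called in any mutant.

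The features most like *SNC1* across the 36 libraries, by Pearson's r of log2(CPM + 1) over 19562 features, were *RPP5* (r = 0.92), *RPP4* (r = 0.90) and *RPS6*, another TIR-type receptor gene (r = 0.88). For *EDS1* they were *EXO70B2*, an exocyst subunit (0.92), *TPP* (0.92) and *SNAP33*, a membrane fusion protein (0.91). *PR2* was most like *RLP23*, a receptor for microbial peptides (0.98), *AIG1* (0.97) and *TAT3* (0.96), and *PR5* like *PCR1* (0.91), *RLP23* (0.88) and *TAT3* (0.87). *PR1* was most like *PCR1* (0.73), *CRK36* (0.70) and AT5G59670 (0.68). *ICS1* was like *RLP41* (0.85), *AIG1* (0.83) and *PR2* itself (0.83), and *PAD4* like AT5G17760 (0.82), AT1G69730 (0.82) and *GATA26* (0.79). Among the members, r was 0.84 for *PR2* with *PR5*, 0.71 for *PAD4* with *ICS1*, 0.68 for *EDS1* with *SNC1* and −0.18 for *EDS1* with *PAD4*. These points share libraries, depth and a few libraries of extreme *PR2*, and are given as a description.

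The ChIP-seq lists were searched from 1 kb before the start to the end of each gene, with an overlap of at least 1 bp. *SNC1*, at chr4:9500271-9505972 on the minus strand of TAIR10.1, carried 2 MORC6-Myc peaks in each of the 7 lists made outside *pial1/2*. One covered the start of the gene. The stretch shared by the 7 lists was chr4:9505664-9506356, of which 309 bp were non-coding exon and 384 bp lay before the gene, and it therefore includes the TGACG and W-box letters printed above. Its summits lay from 172 bp before to 29 bp after the start (median 43 bp before), its fold enrichment ranged from 2.42 to 6.94 and its −log10 q from 15.7 to 74.5.

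The other peak lay inside the gene. The stretch shared by the 7 lists was chr4:9502772-9503763, with 768 bp of coding sequence and 224 bp of intron, summits 2782 to 3086 bp after the start (median 2998), fold enrichment of 1.75 to 5.38 and −log10 q of 4.76 to 61.1. The 120 bases around the median summit are printed because they mark the inner position, with 42.5% G and C against 34.4% in the 250 bases before the start, and the same motifs are in capitals.
SNC1 inner peak, chr4:9502914-9503033, minus strand: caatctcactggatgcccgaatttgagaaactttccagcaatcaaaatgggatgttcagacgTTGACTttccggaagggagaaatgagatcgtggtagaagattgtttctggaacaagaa

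In the 3 MORC6-Myc lists from *pial1/2* plants, *SNC1* had no peak, and the nearest peak was 56751 to 164017 bp away. These lists held 1151, 1348 and 1215 peaks against 4916 to 13430 in the other 7, and 2.83%, 3.41% and 2.97% of protein-coding genes had a peak in them, so the absence at *SNC1* goes with far fewer peaks throughout. The lists hold no read counts, and whether this comes with lower enrichment in those libraries was not tested here. For this double mutant background the paper reports a strong drop of the tagged protein's signal over Pol V peaks. It reports no drop in the level of that protein, and lists total reads of similar size for the libraries of the different backgrounds. All 7 genes lacked a peak in these 3 lists.

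**Figure D3:**
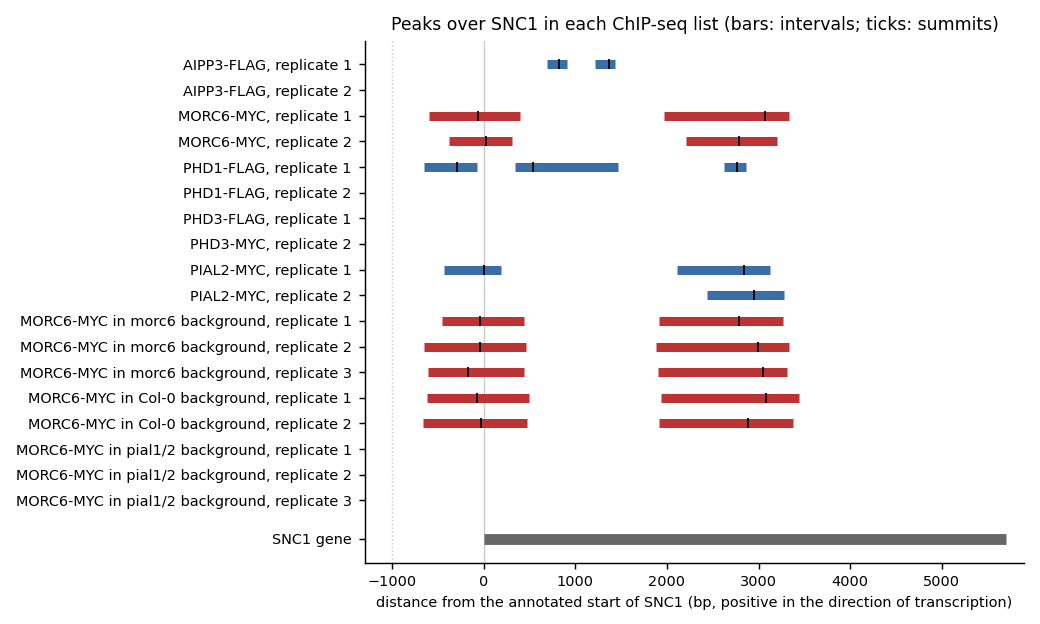
Peaks over *SNC1* by list, drawn by distance in bp from the transcription start, with bars for intervals, ticks for summits and the gene in grey. The 7 MORC6-Myc lists outside *pial1/2* have a peak at the start and one with its summit 2782 to 3086 bp into the gene, and the 3 lists from *pial1/2* have none.

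Components of the MOM1 complex also had peaks at the same locus. PIAL2-Myc replicate 1 had both positions, at a fold enrichment of 2.1 inside and 1.86 at the start, and replicate 2 had the inner one at 2.34. PHD1-FLAG replicate 1 had 3 peaks, with summits 288 bp before the start and 541 and 2765 bp after it, at 1.72 to 2.12. AIPP3-FLAG replicate 1 had 2, with summits 824 and 1366 bp after the start, at 1.94 and 1.85, which fell below a −log10 q of 5. The second lists of AIPP3-FLAG and PHD1-FLAG and the PHD3 lists had none at *SNC1*.

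*EDS1*, at chr3:17755329-17758147 on the minus strand, had a MORC6-Myc peak in 5 of the 7 lists outside *pial1/2*, not in the second MORC6-Myc list nor in line 1 of the Col-0 background. The shared stretch chr3:17757747-17757978 lay wholly in non-coding exon, with summits 233 to 297 bp after the start, fold enrichment of 2.09 to 2.91 and −log10 q of 4.61 to 7.72. PIAL2-Myc replicate 1 had a peak there too, at 2.31. In each of the 5 MORC6-Myc lists the *EDS1* fold was below both *SNC1* folds of the same list, while in the PIAL2-Myc list it was above them. *ICS1* had a single peak, in the first MORC6-Myc list, 1158 bp after the start at a fold enrichment of 2.503. *PR1*, *PR2*, *PR5* and *PAD4* had no peak in any of the 18 lists, and the nearest to *PAD4* was a PHD3-FLAG peak 1001 bp away.

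Counts of members are to be read against how many genes carry a peak. In the MORC6-Myc lists 3 of the 7 genes had a peak in replicate 1 (25.7% of 27444 protein-coding genes) and 1 in replicate 2 (11%). With MORC6-Myc in *morc6* it was 2 in each of the 3 lines (18.7%, 32.3% and 21.5%), and in Col-0 plants 1 in line 1 (19.3%) and 2 in line 2 (32.2%). It was 2 for PIAL2-Myc replicate 1 (21.3%) and 1 for replicate 2 (5.41%). For AIPP3-FLAG it was 1 in replicate 1 (18.5%) and 0 in replicate 2 (10%), and for PHD1-FLAG 1 (8.43%) and 0 (0.0583%). PHD3-FLAG replicate 1 (20.2%) and PHD3-MYC replicate 2 (3.34%) gave 0. Shares of the 7 genes were near the background in most lists. The peaks come from floral tissue and the transcripts from seedlings, so the 2 are set side by side and not joined.

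Of 39 other SA genes, grouped as synthesis, transcription regulators, perception, EDS1 partners and helper receptors, turnover and systemic resistance, 37 were tested in the larger set. The number called lower was 12 in *phd1-4* (3.71% of all features called either way), 9 in *mom2-2* (3.38%), 7 in *morc6-3* (3.35%), 7 in *morchex* (3.91%), 6 in *phd1-2* (3.1%), 2 in *aipp3-1* (2.88%) and 1 in *aipp3-2* (4.2%). None was higher except *PBS3* in *aipp3-2*. In each *aipp3* allele 5.41% of the 37 were called, near the share of all features. By edgeR none was called in *mom2-1*, *pial1-2*, *pial1/2*, *pial2-1* or, of 35 tested, *nrpe1-11*. At an unadjusted p under 0.05 there were 8 in *pial1-2*, 9 in *pial2-1* and 0 in the other 3, and DESeq2 called 2 in *pial2-1* and 0 in the other 4. In *pial2-1* the replicate block and the fit without the level filter each gave 2 calls as well. The median log2 fold change of the 37 was −0.72 in *phd1-4*, −0.62 in *morchex*, −0.60 in *mom2-2*, −0.51 in *morc6-3* and −0.37 in *phd1-2*, where that of all features lay between 0.00 and 0.01. In the same 5 comparisons 509, 487, 492, 463 and 391 features of the whole table were called lower.

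*WRKY18*, a WRKY factor of the basal defence response, was lower in 7 mutants, with log2 fold changes from −3.48 to −2.08. It was 50.2 ± 21.0 CPM in Col-0 and 4.40 ± 0.374 CPM in *morchex* (−3.48, SE 0.35, adjusted p = 0.00132), and 45.1 ± 11.7 CPM in *mom2-1*. *SARD1*, an activator of *ICS1*, was lower in *mom2-2*, *morc6-3*, *morchex*, *phd1-2* and *phd1-4* (−3.13 to −1.57), from 4.62 ± 1.02 CPM in Col-0 to 0.519 ± 0.153 CPM in *mom2-2*. *CBP60A*, a repressor of SA defence, was lower in 6 (−1.26 to −1.04). The SA receptor gene *NPR3*, whose product represses defence genes, was lower in 5, as was *ADR1-L2*, a helper receptor that works with EDS1 and PAD4. The genes that fell thus include activators and repressors of SA signalling. *PBS3*, which acts after ICS1 in SA synthesis, was higher in *aipp3-2* (log2 fold change 1.37, SE 0.28, adjusted p = 0.0143).

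**Figure D4:**
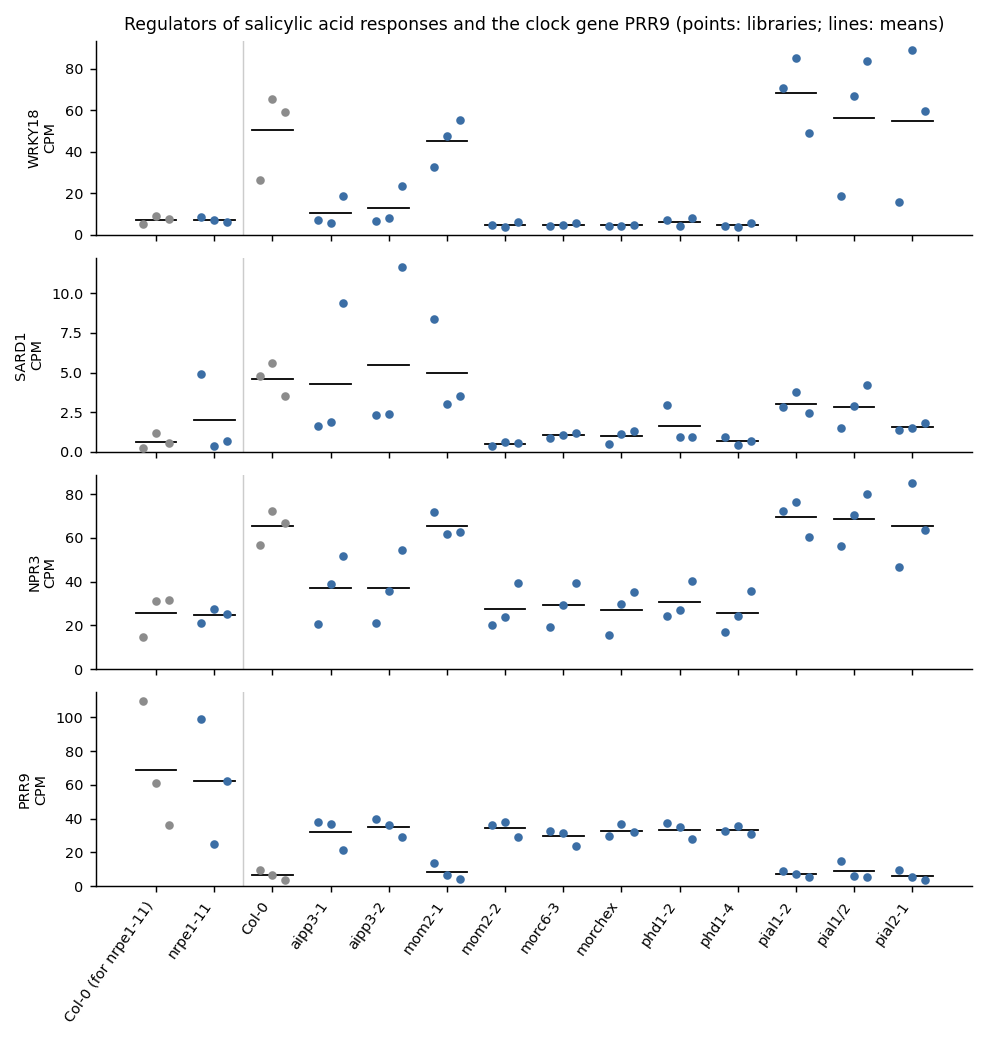
Levels in CPM (vertical axes) of *WRKY18*, *SARD1*, *NPR3* and the clock gene *PRR9* in all 42 libraries, by genotype group, with points for libraries (grey for Col-0) and lines for group means. In the larger set *WRKY18* has a mean of 50.2 CPM in Col-0 and 4.40 CPM in *morchex*, while *PRR9* has 6.63 and 32.9 CPM.

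Clock transcripts moved with these genes. *PRR9*, a morning gene of the circadian clock, was 6.63 ± 2.83 CPM in Col-0, 8.27 ± 4.68 in *mom2-1* and 6.25 to 8.96 on average in the 3 *pial* lines, against 34.4 ± 4.81 CPM in *mom2-2*, 29.5 ± 4.78 in *morc6-3* and 32.9 ± 3.56 in *morchex*. It was called higher in *aipp3-1*, *aipp3-2*, *mom2-2*, *morc6-3*, *morchex*, *phd1-2* and *phd1-4*, with log2 fold changes from 2.15 to 2.37, and in *mom2-2* against *mom2-1* at 2.01. Of 9 clock genes 1 to 3 were called higher in these 7 mutants and none lower, where 2.88% to 4.2% of all features were called either way. With no minimum fold *TOC1* and *LUX*, evening genes, were lower in all 7, from −0.79 to −0.63 for *TOC1* and from −0.71 to −0.58 for *LUX*, and *GI* was lower in *morchex*, so the sum of the 9 covers moves both ways. That sum was 595 to 648 CPM in Col-0, 554 to 622 in *mom2-2*, 450 to 573 in *morc6-3*, 478 to 548 in *morchex* and between 501 and 621 in the *aipp3* and *phd1* alleles. None of the 9 was at 0 in Col-0. *WRKY18* was called lower in each of the same 7 mutants, and all 7 comparisons rest on the same 3 Col-0 libraries. The part of harvest time or growth batch in the *EDS1*, *SNC1* and SA gene values was not tested, since the labels give neither.

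When the mean of the 10 other mutants replaced Col-0, the number of the 37 SA genes called either way was 0 in *mom2-2*, 1 each in *morc6-3*, *morchex*, *phd1-2* and *phd1-4*, and 5 in *aipp3-2*. That mean includes the other mutants in which the same genes were lower, so fewer calls of genes that these mutants share were built in. When 1 library was left out the counts against Col-0 were 7 to 13 in *mom2-2*, 4 to 8 in *morc6-3*, 4 to 9 in *morchex*, 4 to 7 in *phd1-2*, 7 to 16 in *phd1-4*, 0 to 6 in *aipp3-1* and 1 to 7 in *aipp3-2*.

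The *aipp3* seedlings, in which libraries with high *PR2* and *PR5* occurred, also differed from Col-0 in other marker lists. The 3 floral organ genes summed to 9.04 to 10.7 CPM in *aipp3-1* and 7.30 to 8.98 CPM in *aipp3-2*, against 1.68 to 3.15 CPM in Col-0. *AP3*, which specifies petals and stamens, was at 0 in 2 of the 3 Col-0 libraries. All 3 were called higher in *aipp3-1* and 2 of 3 in *aipp3-2*, where 2.88% and 4.2% of all features were called either way. Of 8 jasmonate and ethylene markers tested in *aipp3-2*, 3 were called higher, *PDF1.2A* among them at a log2 fold change of 5.70, and the list summed to 591 to 832 CPM against 427 to 467 in Col-0. The senescence marker *SAG13* was higher in *aipp3-2* by 3.02 on the log2 scale, at 4.78 to 14.7 CPM against 0.757 to 1.22 in Col-0. *SAG12*, the other gene of the senescence list, had no count in any library. *SAG13* was called higher in *morc6-3* as well, by 1.35 (edgeR adjusted p = 0.00713), and in no other mutant. Some mutants without high *PR2* overlapped the *aipp3* sums. The floral sum was 2.87 to 13.2 CPM in *pial2-1*, and the jasmonate and ethylene sum 439 to 836 CPM in *morchex* and 326 to 828 CPM in *mom2-1*. In *pial1/2* they were lower, at 2.51 to 3.91 and 315 to 378 CPM. The part of flowering stage or ageing in the *PR2* values was not tested.

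The 2 Col-0 controls differed from each other in *PR5*. The control of *nrpe1-11* had 11.7, 18.4 and 12.2 CPM, every library above the 2.21 to 3.28 CPM of the other Col-0, with a log2 fold change of 2.28 (SE 0.22, adjusted p = 0.0002), and 1 of 5 members tested was called against 16.9% of features. With no minimum fold *SNC1* passed as well, lower by −0.64 (SE 0.13, adjusted p = 0.00537) at 80.4, 112 and 102 CPM, making 2 of 5 against 57.7%. With a background this high these counts are not particular to the members. The *RPP5* cluster differed both ways, with 2 of 7 genes called lower and 1 higher and a median log2 fold change of −0.23. *RPP4* was 12.8 ± 5.51 against 134 ± 10.5 CPM (log2 fold change −3.41) and *RPP5* 45.5 ± 6.80 against 276 ± 18.6 CPM (−2.62), while AT4G16940 was higher, at 3.87 ± 0.835 against 1.38 ± 0.210 CPM (1.46, adjusted p = 0.00137). Of the 37 SA genes 15 were called lower and 2 higher. Of the 9 clock genes 3 were called higher and 5 lower, their sum being 1510 to 2048 CPM against 595 to 648 CPM. Set, harvest and sequencing run cannot be told apart here, so *nrpe1-11* was compared with its own control alone. *SNC1* was 88.5, 109 and 94.1 CPM in *nrpe1-11* and did not differ from that control beyond the spread of the libraries (−0.02, SE 0.14, adjusted p = 1.00).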

How the data were processed

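RNA-seq tables of 42 libraries and ChIP-seq peak lists of 18 libraries were used. The authors aligned the RNA-seq reads with Bowtie2 and quantified them with RSEM on TAIR10, and deposited an expected count, estimated from reads that may fit several transcripts, and a TPM for each gene and TE. The authors called peaks with MACS2 against Col-0 controls, and each deposited interval carries a score, a fold enrichment, and its p and q as −log10, of which the fold and −log10 q were used. Removal of peaks that recur in FLAG ChIP of untagged Col-0 is described in the methods, which leave unsaid if these lists underwent it. The submitters' processing notes name Bowtie2 2.4.2, MACS2 2.1.2 and edgeR 3.30.0.

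After rounding, expected counts of genes and TEs went together into edgeR 4.0.16 (R 4.3.3, TMM, quasi-likelihood test), and a feature entered a comparison where 2 or more of its 6 libraries reached a CPM of 1. CPM values are counts over the unscaled library total, and SEs are approximate, from the log2 fold change and its F statistic. Adjusted p-values are Benjamini-Hochberg values over all features tested. Alternatives were DESeq2 1.42.0, other size factors, no filter, no minimum fold, a replicate block, genes only, 1 fit over 36 libraries, the mean of the other mutants as reference, and each library left out. On simulated counts for *aipp3-1* against Col-0, with 200 of 20044 features changed by 2 on the log2 scale, edgeR called 198 of them and 6 others. The 42 pairs of replicates within groups held no identical libraries. Residuals of same-numbered libraries correlated above 0.1 in every pair in 6 of 19 comparisons (range of r −0.20 to 0.54), namely *mom2-1*, *pial1/2* and *pial2-1* against Col-0, *aipp3-2* against *aipp3-1*, *phd1-4* against *phd1-2* and *morchex* against *morc6-3*.

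Sequences and gene models are RefSeq's TAIR10.1, in which no peak ran past the end of any of the 5 nuclear chromosomes. The table of peaks and genes was made with Python 3.11.15, numpy 2.4.6 and pandas 2.3.3. The members and gene lists were chosen with earlier results of these data known, and the clock genes were added after the values were seen. All members were named, up to 5 called genes per list and comparison with the largest change, and the 3 features most like each member. The genes of the *RPP5* cluster and the marker genes given with values beyond these were picked after their values were seen. Bisulfite, ATAC-seq and *FWA* data were not used here.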

Additional observations from a re-analysis of the deposited data

Results flagged for a closer look

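The alleles of *MOM2* differed in 8 of the 37 other SA genes tested, by a direct edgeR comparison of *mom2-2* with *mom2-1* (3 libraries each), in which 3.13% of all features were called and all 8 were lower in *mom2-2*. *WRKY18* fell by 3.33 on the log2 scale (SE 0.23, adjusted p = 0.000627), from 45.1 ± 11.7 to 4.69 ± 1.09 CPM, and *SARD1* fell by 3.29 (SE 0.50, adjusted p = 0.00555), from 4.98 ± 2.95 to 0.519 ± 0.153 CPM. *ADR1-L2* had a log2 fold change of −1.42, *NDR1*, a membrane protein that receptors of another type need, of −1.35, and *NPR3* of −1.30. *CBP60A* was at −1.24, *WRKY53* at −1.14 and *NIMIN2*, whose product binds NPR1, at −1.005. *PRR9* differed as well, by 2.01 (SE 0.32, adjusted p = 0.00688). *MOM2* itself was lower in both alleles against Col-0, by −6.50 in *mom2-1* and −1.999 in *mom2-2*. The part of harvest or growth batch in this difference was not tested.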

How the results depend on the processing

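The count of members called over the 12 mutants, 1 in the report, was 9 with no minimum fold, 2 without the level filter, 2 with the replicate block, 2 with DESeq2, 3 in a single fit over 36 libraries and 7 against the mean of the other mutants, and was the same with other size factors and with genes only. By mutant, *aipp3-1* went from 0 to 2 against the other mutants. *aipp3-2* went from 1 to 2 in the single fit, to 3 against the other mutants and to between 0 and 2 when 1 library was left out. *mom2-2* and *morc6-3* went from 0 to 1 and *morchex* and *phd1-4* from 0 to 2 with no minimum fold, and *phd1-4* to 1 against the other mutants. *phd1-2* went from 0 to 2 with no minimum fold, to 1 without the filter, with the block, with DESeq2, in the single fit and against the other mutants, and to between 0 and 1 when 1 library was left out. The 6 comparisons within a gene or complex gave 0 calls, and 1 with no minimum fold (*EDS1* in *mom2-2*), 1 without the filter (*PR2*, lower in *mom2-2* than in *mom2-1*) and 1 with the block (*PR2* in *phd1-4*). The Col-0 controls went from 1 to 2 with no minimum fold. Among peak lists, AIPP3-FLAG replicate 1 went from 1 gene to 0 and line 1 of MORC6-Myc in *morc6* from 2 to 1 at a −log10 q of at least 5, and PHD3-FLAG replicate 1 from 0 to 1 from 2 kb before to 500 bp after the gene. Of 1290 alternative values of single genes, 1267 stayed on their side of the threshold, 3 lost their call, 20 gained one and 0 reversed. The cause of the changes was not tested, apart from the fewer features or libraries that some alternatives use. Beyond the values given in the report and above, the replicate block changed no other call of a member.

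The fits rest on 3 libraries a group, and all mutants of the larger set share 3 Col-0 libraries. *PR1* and *PR2* were at or near the detection limit in most libraries, where a difference was not detectable at this depth. The peak lists give no read counts, so read coverage at a locus without a peak is unknown, and they come from another tissue than the RNA. The paper lists total reads for the ChIP libraries, which were not used here. The leave-one-out fits with no minimum fold were chosen after seeing the data.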
